A study of Mus musculus with 6 samples.

Results

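The genes described here are the 10 m6A readers and demethylases Ythdf1, Ythdf2, Ythdf3, Ythdc1, Ythdc2, Igf2bp1, Igf2bp2, Igf2bp3, Fto and Alkbh5, taken by symbol from a count table of 18180 genes in mouse tail skin. All 10 were found, and all 10 were among the 15061 genes that passed the low-count filter. The skin came from 2 groups of 3 libraries each. The libraries labelled cKO carry the genotype Mettl3fl/fl;K14creERT2+/- and were taken from spontaneously inflamed parts of the tail. The control libraries carry Mettl3fl/fl;K14creERT2-/- and came from normal tail. Both groups share the floxed Mettl3 alleles, and the K14 promoter directs the tamoxifen-activated Cre recombinase to basal keratinocytes. Per the series' design text, tamoxifen was injected on 5 days and skin was collected 4 weeks later. Animal age is not given in the sources used here. Genotype and inflamed tissue went together, so their effects cannot be told apart.

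N6-methyladenosine (m6A) is a methyl mark on messenger RNA that METTL3, with its partner METTL14, writes in the nucleus. YTH-domain proteins bind the methylated base directly and steer the transcript to splicing, export, translation or decay, whereas IGF2BP proteins bind marked transcripts and are known for stabilising them. FTO and ALKBH5 are oxygenases that remove the methyl group. In skin, m6A is known for its part in hair follicle formation and in the balance between keratinocyte growth and differentiation.

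As a check of the labels, Mettl3 had 569, 512 and 540 counts in the libraries labelled cKO and 440, 389 and 337 in control. The targeted gene was therefore higher where the label says it was deleted (log2 fold change 0.48, SE 0.11, adjusted p = 0.000102, edgeR quasi-likelihood test), which goes against the genotype in the label. Directions therefore refer to libraries by their label. The counts cover the whole gene in whole tissue. They cannot show whether the floxed exons were lost in the basal keratinocytes to which Cre is directed. Totals per library ran from 35855880 to 36113956 counts in the libraries labelled cKO and from 36115822 to 37043849 in control. As a check of the tissue, all 5 basal keratinocyte markers had counts and summed to 12310 to 12606 counts per 1000000 (CPM) in the libraries labelled cKO and 8587 to 8802 CPM in control. Most of the difference in the sum was that of Krt14, the basal keratin gene with the most counts (7687 ± 134 CPM in the libraries labelled cKO, 4157 ± 89.5 CPM in control, SD, n = 3). Of the 5 markers 2 rose and 3 fell (Col17a1, Itgb4 and Trp63), with a median log2 fold change of -0.18. The labels also state inflamed tail for cKO and normal tail for control. Neutrophil markers summed to 3479 to 3540 CPM in the libraries labelled cKO and 100.2 to 106 CPM in control. Macrophage and T cell sums were higher there too, while B cell sums overlapped. The neutrophil, macrophage and T cell sums thus matched the tissue in the labels, and Mettl3 did not match the genotype. Whether labels were exchanged was not tested. Between pairs of libraries of a group, the variance was 3.91 to 4.08 times the variance that counting alone gives. No label states that libraries of the same group are from different mice. The p-values therefore reflect the scatter among these 6 libraries only, and that scatter could be technical.

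The promoters of Ythdf2, Ythdf1 and Igf2bp2 are shown. Ythdf2 and Igf2bp2 had the largest differences among members with over 40 counts in every library. Ythdf1 is a close paralog of Ythdf2 with a smaller difference. Igf2bp1 had a larger log2 fold change (2.94) on fewer counts, and no promoter was matched for it. Each line gives the 250 bases before the RefSeq start of the gene in the GRCm38.p6 build, 5′ to 3′ on the strand of the gene. The counts were made on mm39, so these coordinates apply to the promoter table alone. Ythdf2 lies at chr4:132212257-132212506, Ythdf1 at chr2:180920937-180921186 and Igf2bp2 at chr16:22163300-22163549, all on the minus strand. Capitals mark matches to 8 motifs searched on both strands.
Ythdf2: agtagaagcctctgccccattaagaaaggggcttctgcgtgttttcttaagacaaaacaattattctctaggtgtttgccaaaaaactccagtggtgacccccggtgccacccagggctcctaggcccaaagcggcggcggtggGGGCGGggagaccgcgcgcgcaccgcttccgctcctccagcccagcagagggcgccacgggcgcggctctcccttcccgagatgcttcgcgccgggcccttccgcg
Ythdf1: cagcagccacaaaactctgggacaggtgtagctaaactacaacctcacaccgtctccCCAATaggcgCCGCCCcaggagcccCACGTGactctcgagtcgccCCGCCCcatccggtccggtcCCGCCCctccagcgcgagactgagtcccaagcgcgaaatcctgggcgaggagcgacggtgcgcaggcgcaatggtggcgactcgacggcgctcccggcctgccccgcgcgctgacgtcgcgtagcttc
Igf2bp2: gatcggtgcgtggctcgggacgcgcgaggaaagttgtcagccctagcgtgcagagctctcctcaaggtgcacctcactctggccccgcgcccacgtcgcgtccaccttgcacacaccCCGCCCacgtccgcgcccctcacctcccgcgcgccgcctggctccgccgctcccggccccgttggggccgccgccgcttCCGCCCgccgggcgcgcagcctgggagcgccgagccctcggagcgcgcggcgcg

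Capital runs are GC boxes (GGGCGG or its complement), apart from a CCAAT box (CCAAT) and an E-box (CACGTG) in the Ythdf1 promoter. The Ythdf2 window held 1 GC box, the Ythdf1 window 3 and the Igf2bp2 window 2. Of 11913 tested genes with a promoter in the table, 55.6% held a GC box, 36.0% a CCAAT box and 7.96% an E-box in windows of the same length. Promoters were found for 7 of the 10 genes, with no entry matched for Ythdf3, Ythdc2 and Igf2bp1. None of the 7 windows held the TATA box (TATAAA, 8.08% of tested genes), the AP-1 site (TGANTCA, 5.08%), the cAMP response element (TGACGTCA, 2.49%) or the NF-kB site (1.44%). The STAT site (TTCNNNGAA, 6.09%) matched once, in the Fto window. No motif searched was common to all 7 windows, and a match describes letters and not a bound site. CpG pairs numbered 22 in the Ythdf2 window, 30 in that of Ythdf1 and 40 in that of Igf2bp2, against a median of 14 over tested genes. The Igf2bp2 window held more CpG pairs than 97.7% of them.

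The question for these genes is whether the transcripts that read and erase m6A were present at other levels in the inflamed skin of Cre carriers than in normal control skin. Of the 10 genes, 8 rose in the libraries labelled cKO, none fell, and Ythdc2 and Igf2bp3 did not pass the test. The same rule called 61.4% of all tested genes, 30.8% higher and 30.6% lower. Among the 9926 tested genes that averaged at least 10 CPM, 33.8% were called higher. The median log2 fold change of the 10 genes was 0.25, beside 0.00 over all tested genes. In the 8 called genes every library labelled cKO lay above every control library, a pattern that 32.6% of tested genes showed, while 32.3% showed the opposite. The sizes split into a group of 3 and a group of 5. Ythdf2, Igf2bp1 and Igf2bp2 rose at least 2-fold, which 5.98% of tested genes did with the same test. Of these, Igf2bp1 passed the low-count filter only through the libraries labelled cKO, where it was high. Ythdf1, Ythdf3, Ythdc1, Fto and Alkbh5 rose by 1.13-fold to 1.26-fold.

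**Figure D1:**
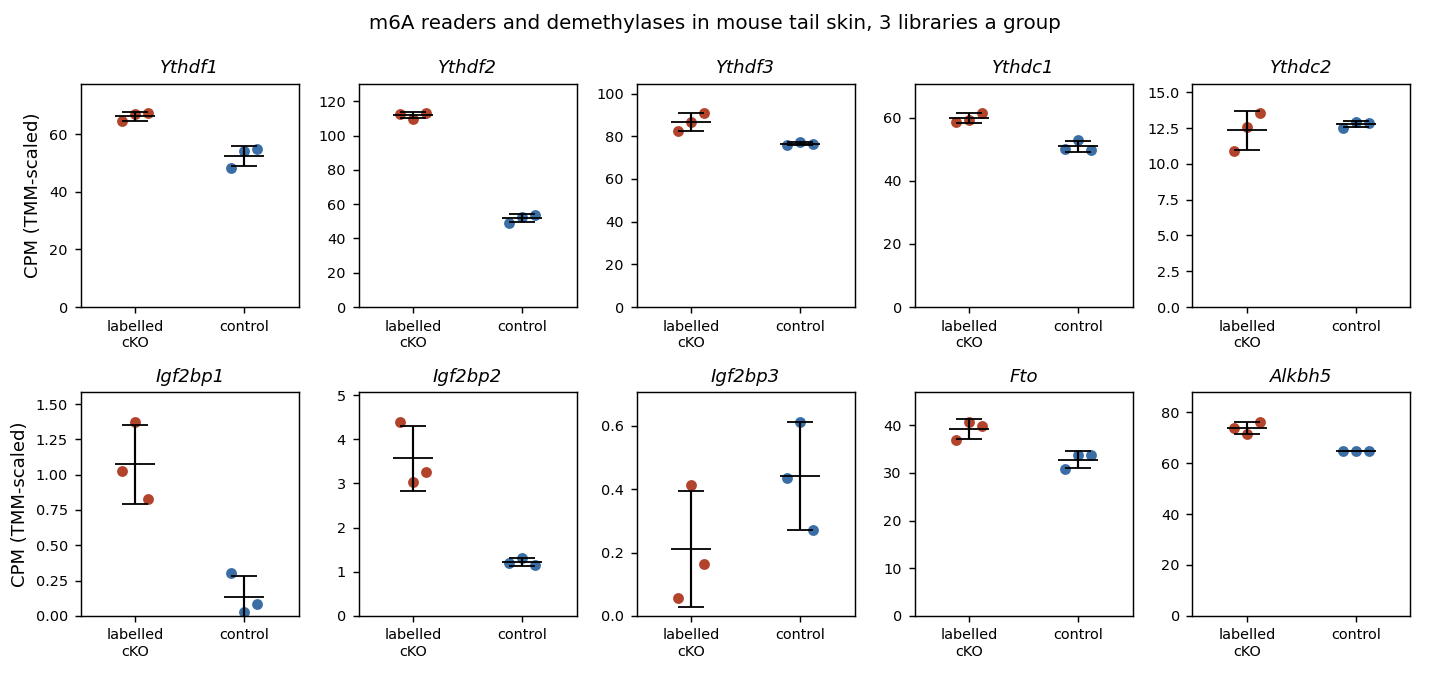
TMM-scaled CPM of each of the 10 genes, with 1 point per library, the mean as a wide bar and the SD as an error bar (n = 3 a group); each panel has its own axis that starts at 0. In 8 panels all 3 libraries labelled cKO lie above all 3 control libraries, and the groups overlap for Ythdc2 and Igf2bp3.

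The YTHDF proteins are cytoplasmic readers. YTHDF2 is known for recruiting the CCR4-NOT deadenylase and speeding the decay of marked transcripts, YTHDF1 for promoting their translation, and YTHDF3 for working with both. Ythdf2 (NCBI gene 213541) had 4074, 3988 and 4123 counts in the libraries labelled cKO and 1803, 1881 and 1973 in control. The lowest of the first 3 libraries was about double the highest of the other 3 in raw counts, and the groups were far apart. After scaling, Ythdf2 averaged 112 ± 1.88 CPM in the libraries labelled cKO and 51.8 ± 2.38 CPM in control (SD, n = 3). The difference was 2.16-fold, with an approximate 95% interval of 2.04-fold to 2.29-fold from 1.96 times the standard error (edgeR, adjusted p = 2.52e-36). Of the 15061 tested genes, 790 (5.25%) had a higher log2 fold change than Ythdf2.

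Ythdf1 (NCBI gene 228994) had 2328, 2427 and 2454 counts in the libraries labelled cKO and 1773, 1934 and 2015 in control. The control library with 1773 counts was the lowest, and the groups did not overlap. The scaled means were 66.2 ± 1.56 CPM in the libraries labelled cKO and 52.4 ± 3.56 CPM in control (log2 fold change 0.34, SE 0.050, adjusted p = 1.42e-08, edgeR).

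Ythdf3 (NCBI gene 229096) had 2977, 3145 and 3312 counts in the libraries labelled cKO and 2787, 2768 and 2807 in control. It was the most abundant of the paralogs by raw counts in control, and the coefficient of variation of its CPM was 0.879% in control, below the 1.89% that counting alone gives. The means were 86.7 ± 4.27 CPM in the libraries labelled cKO and 76.5 ± 0.673 CPM in control, a rise of 1.13-fold (interval 1.07-fold to 1.199-fold, edgeR adjusted p = 0.000148). The gap between the highest control library, at 77.3 CPM, and the lowest library labelled cKO, at 82.4 CPM, was 5.18 CPM.

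**Figure D2:**
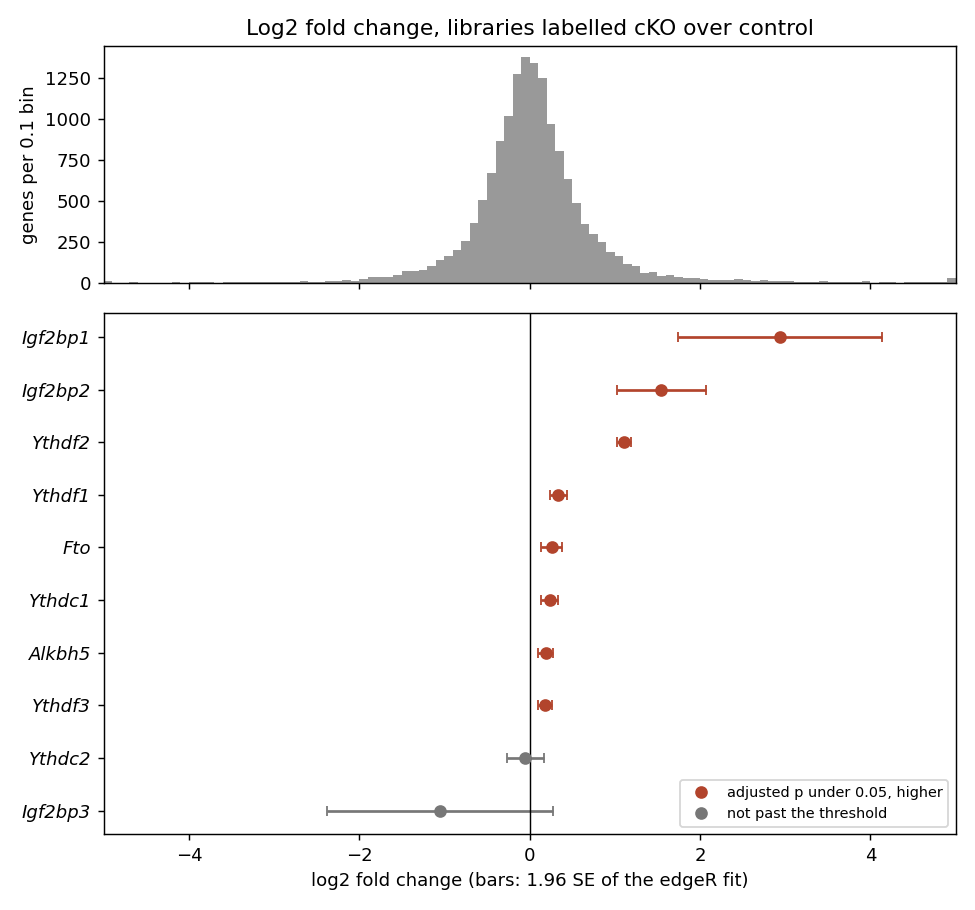
The upper panel counts the 15061 tested genes by log2 fold change in bins of 0.1, with values beyond the axis placed in the end bins; the lower panel gives the log2 fold change of each of the 10 genes with a bar of 1.96 standard errors. Igf2bp1, Igf2bp2 and Ythdf2 lie to the right of 1, 5 genes lie between 0.18 and 0.34, and the bars of Ythdc2 and Igf2bp3 cross 0.

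Because the paralogs rose unequally, the makeup of the YTHDF counts differed. Ythdf2 held 43.4%, 41.7% and 41.7% of the YTHDF counts in the libraries labelled cKO and 28.3%, 28.6% and 29.0% in control. Ythdf1 averaged 25.0% ± 0.328 in the libraries labelled cKO and 29.0% ± 0.964 in control, and Ythdf3 averaged 32.7% ± 0.89 in the libraries labelled cKO and 42.4% ± 1.28 in control (SD, n = 3). None of these shares overlapped between groups, and each difference had an exact two-sided permutation p of 0.1, the smallest that 3 against 3 libraries can give. Shares within a family depend on each other, so these are not separate observations. Shares of other families of the table were not counted for comparison. By CPM, 32.6% of single tested genes had every library labelled cKO above every control library, and 32.3% the opposite. The 3 paralogs together summed to 265 ± 6.13 CPM in the libraries labelled cKO and 181 ± 6.39 CPM in control, a ratio of 1.47. Of that difference of 84.2 CPM, Ythdf2 made up 71.5%, Ythdf1 16.5% and Ythdf3 12.04%.

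**Figure D3:**
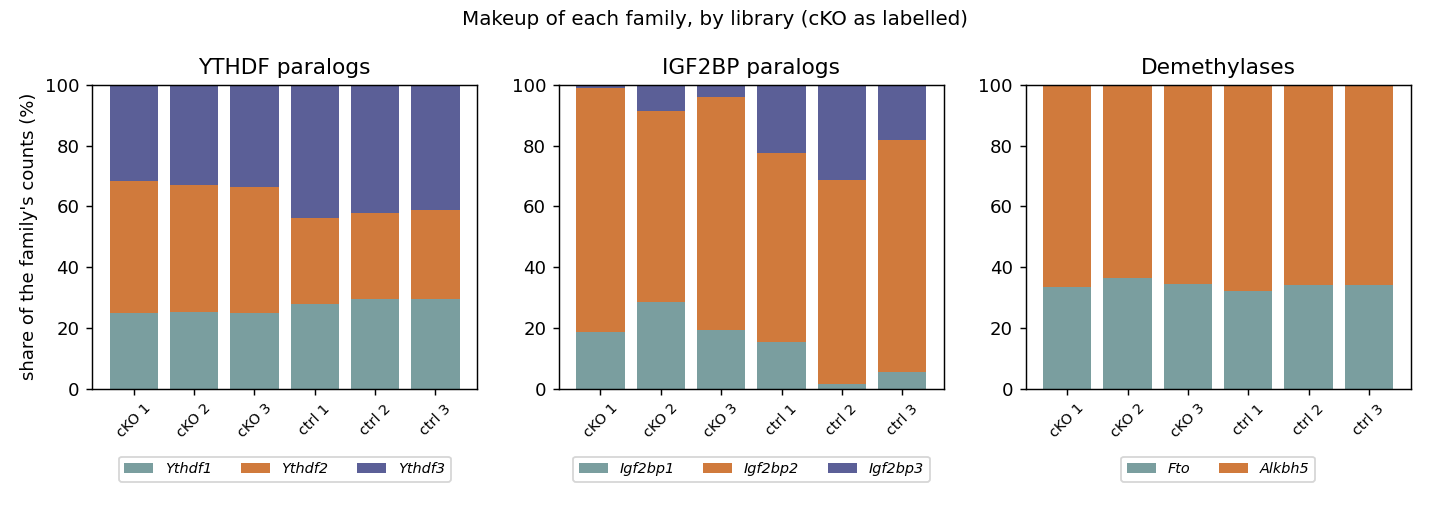
Stacked bars give the share of each gene in the counts of its family, 1 bar per library, with the 3 libraries labelled cKO left of the 3 control libraries. The Ythdf2 segment is 41.7% to 43.4% in the libraries labelled cKO and 28.3% to 29.0% in control, while the Fto segment overlaps between groups.

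Ratios between genes within a library do not depend on how libraries are scaled, and were compared for the 7 genes with at least 1000 counts over the control group, which makes 21 pairs. All 6 ratios of Ythdf2 to another gene lay apart between groups, and it gained by 0.77 on the log2 scale against Ythdf1, its nearest, and by 1.17 against Ythdc2, its farthest. Of the 15 pairs without Ythdf2, 8 lay apart and 7 overlapped. The 6 ratios share Ythdf2, so they are not separate observations. Ratios between other genes of the table were not counted. Of single tested genes, 32.6% had every library labelled cKO above every control library in CPM, and 32.3% had the opposite. The Ythdf3 to Alkbh5 ratio differed by -0.01 on the log2 scale and the Ythdc1 to Fto ratio by -0.02, with overlap in both. The smallest exact permutation p of 0.1 became 0.15 after Benjamini-Hochberg adjustment over the 21 pairs, so no pair could pass a threshold of 0.05.

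YTHDC1 is the nuclear reader, known for guiding splicing and export of marked transcripts. Ythdc1 (NCBI gene 231386) had 2119, 2157 and 2243 counts in the libraries labelled cKO and 1835, 1901 and 1827 in control. All 3 libraries labelled cKO were higher, at 59.9 ± 1.53 CPM against 50.9 ± 1.85 CPM in control (1.18-fold, interval 1.10-fold to 1.26-fold, edgeR adjusted p = 4.19e-05).

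YTHDC2 is an RNA helicase with a YTH domain, known in mouse for its requirement in meiosis. Ythdc2 (NCBI gene 240255) had 394, 456 and 494 counts in the libraries labelled cKO and 460, 463 and 472 in control. The control libraries lay between the libraries labelled cKO, which were more spread. The means were 12.3 ± 1.34 CPM in the libraries labelled cKO and 12.8 ± 0.208 CPM in control (log2 fold change -0.05, SE 0.11, edgeR adjusted p = 0.715). The approximate 95% interval of the fold ran from 0.835 to 1.12. That interval lies below the 1.18-fold of Ythdc1 but overlaps the interval of Ythdc1, 1.10-fold to 1.26-fold. The Ythdc1 to Ythdc2 ratio did not overlap between groups (difference 0.29 on the log2 scale). Its exact permutation p of 0.1 is the smallest that 3 against 3 libraries can give. Without cKO replicate 1, the library with 394 counts, the log2 fold change of Ythdc2 was 0.035.

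IGF2BP proteins bind transcripts through KH domains and are best known from embryonic tissue and tumours, with IGF2BP2 the paralog that is also widely present after birth. They were the least abundant readers here. Igf2bp2 (NCBI gene 319765) had 159, 110 and 119 counts in the libraries labelled cKO and 44, 47 and 42 in control. Every library labelled cKO had more than double the counts of every control library, and replicate 1 was the highest of them. The means were 3.57 ± 0.734 CPM in the libraries labelled cKO and 1.22 ± 0.0858 CPM in control (log2 fold change 1.55, SE 0.27, edgeR adjusted p = 6.03e-07). The approximate 95% interval ran from 2.04-fold to 4.20-fold. On the log2(FPKM + 1) scale, which understates differences of genes near or below 1 FPKM, the difference was 0.55.

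Igf2bp1 (NCBI gene 140486) had 37, 50 and 30 counts in the libraries labelled cKO and 11, 1 and 3 in control. The groups did not overlap, but control replicate 1 held 11 of the 15 control counts. No other control library reached the filter's minimum count of 10, so Igf2bp1 entered the test only through the libraries labelled cKO. Its rank among tested genes carries that limit. The fitted log2 fold change was 2.94 (SE 0.61, edgeR adjusted p = 2.38e-05), which 129 tested genes (0.857%) exceeded, and it was 4.21 without control replicate 1. It was 0.15 on the log2(FPKM + 1) scale and 0.98 on the log2(FPKM + 0.1) scale. Summed over the group, 117 counts in the libraries labelled cKO against 15 in control gave a scaled ratio of 7.83, with an exact 95% interval of 4.56 to 14.4 that covers counting error only.

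Igf2bp3 (NCBI gene 140488) had 2, 15 and 6 counts in the libraries labelled cKO and 16, 22 and 10 in control. The highest library labelled cKO lay inside the control range, and the gene did not pass the test (log2 fold change -1.05, SE 0.68, edgeR adjusted p = 0.177). The approximate interval of the fold ran from 0.193 to 1.21. Summed over the group, 23 counts in the libraries labelled cKO against 48 in control gave a scaled ratio of 0.481, with an exact 95% interval of 0.279 to 0.807 that covers counting error only and not the spread between libraries. Its exons overlap those of Malsu1, a mitochondrial ribosome factor gene on the opposite strand, in the GENCODE M21 annotation of GRCm38. The strand setting of the counting is not given in the sources used here, and Malsu1 had 19.4 ± 0.972 CPM in the libraries labelled cKO and 16.8 ± 0.592 CPM in control, far above Igf2bp3.

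Across the IGF2BP family the sum was 5.48, 4.82 and 4.26 CPM in the libraries labelled cKO and 1.93, 1.95 and 1.498 CPM in control, a ratio of 2.70. Igf2bp2 held most of the family in every library, with 73.3% ± 9.22 of its counts in the libraries labelled cKO and 68.5% ± 7.29 in control (exact permutation p = 0.5). The shares of the minor members differed. Igf2bp1 held 18.7% to 28.6% of the family in the libraries labelled cKO and 1.43% to 15.5% in control, and Igf2bp3 held 1.01% to 8.57% in the libraries labelled cKO and 18.2% to 31.4% in control. Both minor shares lay apart between groups, at an exact permutation p of 0.1 each. Shares within a family depend on each other, and Igf2bp3 itself did not pass the test (edgeR adjusted p = 0.177).

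FTO removes the methyl group from m6A and from the methylated cap-adjacent adenosine, and ALKBH5 acts on m6A. Fto (NCBI gene 26383) had 1333, 1482 and 1455 counts in the libraries labelled cKO and 1130, 1209 and 1242 in control. Replicate 1 was the lowest library in both groups, and the groups lay apart. The means were 39.2 ± 2.05 CPM in the libraries labelled cKO and 32.8 ± 1.73 CPM in control (1.197-fold, interval 1.10-fold to 1.30-fold, edgeR adjusted p = 0.000255).

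Alkbh5 (NCBI gene 268420) had 2666, 2601 and 2780 counts in the libraries labelled cKO and 2382, 2321 and 2384 in control. Its 3 control libraries were nearly equal after scaling, at 64.8 to 64.9 CPM, and those labelled cKO ran from 71.6 to 76.4 CPM. The rise was 1.14-fold (interval 1.07-fold to 1.21-fold, edgeR adjusted p = 0.000181). Both demethylases rose by similar factors, so their makeup moved little. Fto held 34.7% ± 1.51 of the demethylase counts in the libraries labelled cKO and 33.6% ± 1.198 in control, with overlap between groups (difference 1.10 percentage points, exact permutation p = 0.4).

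Levels of different genes were compared in FPKM, which corrects for gene length. In the libraries labelled cKO the order was Ythdf2 at 27.7 ± 0.448, Ythdf1 at 21.1 ± 0.509, Ythdf3 at 17.1 ± 0.848, Ythdc1 at 14.8 ± 0.383, Alkbh5 at 12.4 ± 0.394 and Fto at 8.77 ± 0.465 FPKM. In control it was Ythdf1 at 16.4 ± 1.13, Ythdf3 at 14.8 ± 0.138, Ythdf2 at 12.6 ± 0.59, Ythdc1 at 12.4 ± 0.452, Alkbh5 at 10.7 ± 0.0136 and Fto at 7.21 ± 0.386 FPKM. Ythdf2 thus stood the highest of the 10 genes in the libraries labelled cKO and was the third in control. Ythdf2 and Ythdc1 in control were the only neighbours in either order whose ranges overlapped. Ythdc2 followed in both groups at 1.92 ± 0.21 FPKM in the libraries labelled cKO and 1.96 ± 0.0333 FPKM in control. Igf2bp2 came next, at 0.922 ± 0.189 FPKM in the libraries labelled cKO and 0.31 ± 0.0218 FPKM in control. At the bottom, Igf2bp1 stood above Igf2bp3 in the libraries labelled cKO and below it in control.

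**Figure D4:**
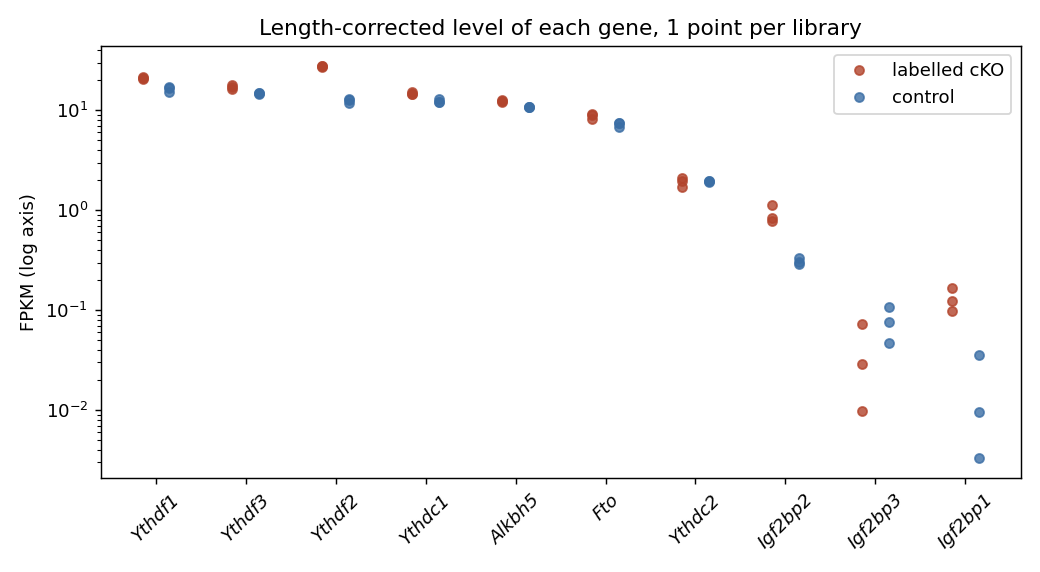
FPKM of each gene on a log axis, 1 point per library, with libraries labelled cKO left of control libraries and genes ordered by their control mean. Ythdf2 is the highest gene in the libraries labelled cKO, at 27.2 to 28.0 FPKM, and the third in control, at 11.9 to 13.1 FPKM; the IGF2BP genes lie below the others.

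The genes that handle the mark beside these were counted from lists, beside 30.8% of all tested genes higher and 30.6% lower. Of 9 m6A writer genes, 6 rose, among them the targeted gene Mettl3, and none fell (median log2 fold change 0.19). Rbm15, which guides the writer complex to RNA, rose by 1.09 on the log2 scale (12.7 ± 0.937 CPM in the libraries labelled cKO, 5.95 ± 0.573 CPM in control, edgeR adjusted p = 1.34e-11). Wtap, the scaffold that anchors the complex and the writer gene with the most counts, rose by 0.17 (edgeR adjusted p = 0.000696). Of 12 other RNA-binding proteins linked to m6A, 7 rose and 2 fell (median 0.11). The stress granule protein gene G3bp1 rose most, by 0.63 (130 ± 2.84 CPM in the libraries labelled cKO, 84.0 ± 2.04 CPM in control), and Fxr2, a relative of the fragile X protein gene, had a log2 fold change of -0.25.

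Of 12 protein partners of the YTH readers, 10 were tested, 4 rose and 3 fell, and the median was -0.01. These shares are near the 30.8% higher and 30.6% lower of all tested genes. The splicing factor gene Srsf3, a partner of YTHDC1, rose by 0.58 (295 ± 2.44 CPM in the libraries labelled cKO, 197 ± 2.23 CPM in control, edgeR adjusted p = 3.20e-34). Xrn1, the exonuclease that degrades decapped transcripts and binds YTHDC2, fell by 0.44 (46.4 ± 2.72 CPM in the libraries labelled cKO, 62.8 ± 0.869 CPM in control, edgeR adjusted p = 1.13e-11). Cnot1, the CCR4-NOT scaffold that YTHDF2 contacts, did not pass the test (188 ± 7.44 CPM in the libraries labelled cKO, 196 ± 5.68 CPM in control, edgeR adjusted p = 0.0777). Cnot1 was chosen after its values were seen.

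Of 12 transcripts known as IGF2BP cargo, 11 were in the table and 10 tested, with 4 higher and 3 lower (median 0.06), again near the shares of all tested genes. Hmga2, a chromatin protein gene of embryonic tissue, had 194, 231 and 199 counts in the libraries labelled cKO and 22, 12 and 9 in control (log2 fold change 3.85, SE 0.28, edgeR adjusted p = 2.29e-20). Igf2, the growth factor gene for which the family is named, fell by 1.61 (7.30 ± 1.06 CPM in the libraries labelled cKO, 22.3 ± 1.23 CPM in control, edgeR adjusted p = 1.26e-22). Actb, the cargo transcript with the most counts, rose by 0.36, and Lin28b had 7 counts over the libraries labelled cKO and 5 over control, too few to test.

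These are counts from whole tissue, in which more cells of a type and more RNA per cell cannot be told apart. Most of the 15 marker lists differed between the groups. All 6 proliferation markers rose, with sums of 498 to 505 CPM in the libraries labelled cKO and 237 to 252 CPM in control. All 4 wound keratinocyte markers rose (26782 to 27844 CPM in the libraries labelled cKO, 3274 to 3300 CPM in control). Of 7 neutrophil markers 6 were tested and all 6 rose (3479 to 3540 CPM in the libraries labelled cKO, 100.2 to 106 CPM in control), and all 6 macrophage markers rose (895 to 923 CPM in the libraries labelled cKO, 601 to 625 CPM in control). Of the T cell list 5 of 6 were in the table and 4 rose (9.23 to 10.9 CPM in the libraries labelled cKO, 2.86 to 4.08 CPM in control). Hair and tail-scale keratins summed to 5730 to 5798 CPM in the libraries labelled cKO and 30556 to 30643 CPM in control, where 4 of 5 fell. Other markers of the tissue differed too. All 3 Schwann cell markers fell (114 to 128 CPM in the libraries labelled cKO, 312 to 327 CPM in control), all 3 red blood cell markers fell (57.0 to 60.6 CPM in the libraries labelled cKO, 88.8 to 101 CPM in control), and 2 of 3 adipocyte markers fell (287 to 296 CPM in the libraries labelled cKO, 322 to 327 CPM in control). All 4 melanocyte markers rose (134 to 140 CPM in the libraries labelled cKO, 80.5 to 82.6 CPM in control), as did all 4 endothelial markers (168 to 173 CPM in the libraries labelled cKO, 124 to 131 CPM in control). Of 5 fibroblast markers 4 rose and 1 fell (11511 to 11553 CPM in the libraries labelled cKO, 9061 to 9123 CPM in control). Of 4 skeletal muscle markers 1 rose (8.63 to 20.3 CPM in the libraries labelled cKO, 5.45 to 8.72 CPM in control), and the 1 B cell marker tested of 3 did not pass (sums of 0.388 to 1.62 CPM in the libraries labelled cKO, 0.572 to 1.23 CPM in control). No marker of these lists was at 0 over all libraries, and their part in the reader results was not tested.

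By edgeR's test against a 1.2-fold difference, 3 of the 10 genes passed, Ythdf2, Igf2bp1 and Igf2bp2, where 18% of tested genes passed as higher. With an assumed biological coefficient of variation of 20%, in place of the estimated 5.34%, the same 3 genes passed and 12.2% of tested genes were called higher. With 40% only Igf2bp1 and Igf2bp2 passed, and Ythdf2 had an adjusted p of 0.226. An assumed spread replaces the spread estimated for each gene, and was no stricter for Igf2bp1. Its SE was 0.61 in the main fit, 0.41 at 20% and 0.60 at 40%. For Ythdf2 the SE was 0.042, 0.24 and 0.48 in the same fits. These settings therefore do not show that Igf2bp1 is the firmer result.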

How the data were processed

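Per the labels' protocols, tail skin RNA was isolated with TRIzol, and the VAHTS Universal V5 kit was used for library preparation. The authors deposited a table of whole-number read counts per gene and a table of FPKM for the same 18180 genes. Reads went through fastp, HISAT2 and HTSeq on mm39, per the submitters' processing notes, without versions. The gene annotation and strand setting: not given in the sources used here. For all 18180 genes the deposited FPKM could be rebuilt from the counts, the library total and a whole-number gene length (relative tolerance 1e-06).

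All 6 libraries were fitted in R 4.3.3 with edgeR 4.0.16: filterByExpr (minimum count 10, minimum total 15), TMM scaling, robust quasi-likelihood fit with group as the only term, two-sided tests, and Benjamini-Hochberg adjustment over 15061 genes. A gene was called at an adjusted p under 0.05. SE is the log2 fold change over the square root of F. The steps were tested on simulated counts with 200 changed genes and the same biological coefficient of variation for all genes. That setting differs from these data, in which 9244 genes were called. A count of 0 allows up to 3 counts, 0.0817 to 0.0837 CPM; floors and counting intervals cover counting error only. Shares and ratios used exact permutation tests (scipy 1.17.1). Promoters were matched by gene number. The 8 motifs searched in them were chosen after the counts had been seen, and the NF-kB site is given by name alone. Alternatives were DESeq2 1.42.0, limma 3.58.1 on voom values and on log2(FPKM + 1) or log2(FPKM + 0.1), other scalings, filters and spreads, a replicate block, and leaving out each library. For Mettl3 the same alternatives were added after seeing the data.

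The genes and lists were chosen with earlier results of these data known. Named genes were the 10 members, Mettl3, from each list the largest called rise and fall and the member with the most counts, and, for members changed at least 2-fold, the 3 genes nearest in centred log2 CPM (prior count 2, mean of at least 1 CPM). A gene named by this rule is not reported here.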

Additional observations from a re-analysis of the deposited data

How the results depend on the processing

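The count of 8 genes called, all higher, and of 9244 genes called in all, stayed within 1.5 times under every other scaling, filter, tool and unit tried and under an adjusted p of 0.01, and each of these settings called no member lower. A filter of 1 CPM in 3 libraries left Igf2bp1 out of the test and called 7. The settings that moved the counts were an assumed biological coefficient of variation of 20% (3 members, 3361 genes) or 40% (2 members, 774 genes) and edgeR's test against a 1.2-fold difference (3 members, 5176 genes). Leaving out each library in turn gave 8 members each time and 8694 to 8847 genes. Without cKO replicate 1, Ythdc2 changed sign to 0.035 (adjusted p = 0.822), within a range of -0.12 to 0.035 over libraries left out, and the cause was not tested. Over libraries left out, the log2 fold change of Igf2bp1 ranged from 2.48 to 4.21 and that of Igf2bp3 from -1.961 to -0.60 (adjusted p from 0.054 to 0.513). With limma on log2(FPKM + 1) the differences of the scarce genes were smaller, 0.15 for Igf2bp1, 0.55 for Igf2bp2 and -0.05 for Igf2bp3, and on log2(FPKM + 0.1) they were 0.98, 1.30 and -0.38; a pseudocount understates differences of low genes. Igf2bp1 and Igf2bp2 still passed on both scales, but on log2(FPKM + 1) neither reached 2-fold, and on log2(FPKM + 0.1) Igf2bp2 alone did. The differences in share ranged from 13.1 to 13.9 percentage points for Ythdf2, 1.32 to 10.05 for Igf2bp2 and 0.286 to 1.77 for Fto; on summed FPKM they were 13.3, 7.01 and 1.18. Scaling moved the median of all genes by at most 0.03. With the replicate number as a block, 8 members and 9212 genes were called and no member's call changed. Libraries that share a number did not deviate together (correlations of -0.0154, -0.0155 and -0.0577). The scatter between libraries could hide a shared part, so this check cannot settle whether the numbers pair them. Depth limits Igf2bp1 and Igf2bp3, which had 1 to 50 counts a library.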

Other observations

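The AlkB homologues other than Fto and Alkbh5, which repair or modify DNA, RNA and protein, mostly did not pass the test. Of 7, Alkbh2, a DNA repair enzyme gene, rose (2.89 ± 0.469 CPM in the libraries labelled cKO, 1.41 ± 0.585 CPM in control, log2 fold change 1.03, edgeR adjusted p = 0.00141). Alkbh6 fell by 0.31 on the log2 scale (11.3 ± 0.258 CPM in the libraries labelled cKO, 14.0 ± 0.888 CPM in control, edgeR adjusted p = 0.0104). The other 5, among them Alkbh3 with the most counts, had adjusted p above 0.05. The genes beside Fto did not move as 1 block. Rpgrip1l, a cilium gene next to Fto, fell by 0.39 (9.34 ± 0.793 CPM in the libraries labelled cKO, 12.2 ± 1.42 CPM in control, edgeR adjusted p = 0.00321). The homeobox genes Irx3 and Irx5, which human studies link to introns of FTO, had log2 fold changes of 0.21 and 0.35 (edgeR adjusted p = 0.000308 and 4.98e-05).

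The genes nearest to Ythdf2 in log2 CPM centred over the 6 libraries were Gjb2, a gap junction gene, Cpne2 and Chpf, at distances of 0.0792, 0.0814 and 0.0965 among 13323 candidates. For Igf2bp2 the nearest were Ptgs2, the inducible prostaglandin synthase gene, and Comp, at 0.309 and 0.33, and for Igf2bp1 they were Sirpb1b, Slc13a3 and the chemokine gene Cxcl9, at 0.396 to 0.943. These distances are over 6 libraries in 2 groups.

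The variance between libraries of a group averaged about the same multiple of the mean for genes with 10 to 10000 counts, and the average was larger above. The variance of scaled counts averaged 3.97 times the mean in the libraries labelled cKO and 3.99 times in control for genes with 10 to 100 counts, and 3.83 times in the libraries labelled cKO and 3.89 times in control for genes with 1000 to 10000 counts. For the 499 genes with more than 10000 counts it averaged 8.40 times in the libraries labelled cKO and 5.65 times in control. The medians of these 499 genes rose less, to 3.01 times in the libraries labelled cKO and 3.38 times in control. For genes with 1000 to 10000 counts the medians were 2.64 and 2.70 times. The larger average above 10000 counts is thus not a trait of most abundant genes.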
